A study of Mus musculus with 11 samples.

Results

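Messenger RNA of 8 genes of the hair cell ribbon synapse, *Otof*, *Slc17a8*, *Ctbp2*, *Bsn*, *Pclo*, *Rims2*, *Rimbp2* and *Cabp2*, was examined in the cochlea with and without *Atf6*. The 8 genes were taken by symbol from the 18667 genes of the expression tables, and all 8 were found and passed the filter on low values, along with 16169 genes in all. The RNA-Seq libraries represent whole cochleae taken at 2 months of age from mice on the C57BL/6J background, which itself loses hearing with age. The 5 *Atf6+/+* libraries came from littermate controls and the 6 *Atf6-/-* libraries from mice that lack functional *Atf6* in every tissue, with 1 library for each cochlea. According to the study, the knockout allele carries an early stop codon and yields no ATF6 protein. Its messenger RNA was lower but still measured. The labels name no other allele and no treatment, and do not give the sex of the animals. Because the knockout was not limited to hair cells and the tissue was not sorted, each value is an average over hair cells, supporting cells, neurons, bone and blood cells.

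At the ribbon synapse of inner hair cells, an electron-dense ribbon holds a store of glutamate-filled vesicles next to the calcium channels of the active zone, so that graded changes of membrane potential are turned into sustained release onto the afferent fibers of the spiral ganglion. RIBEYE, made from an internal promoter of *Ctbp2*, is the main protein of the ribbon. Bassoon (*Bsn*) anchors the ribbon, and a short form of piccolo (*Pclo*) is a further ribbon protein. RIM2 (*Rims2*) and RIM-binding protein 2 (*Rimbp2*) promote the clustering of calcium channels at the active zone. VGLUT3 (*Slc17a8*) loads the vesicles with glutamate, otoferlin (*Otof*) is the calcium sensor for vesicle fusion and replenishment, and CaBP2 (*Cabp2*) limits the inactivation of the calcium channels. Variants of *OTOF*, *SLC17A8* and *CABP2* cause human deafness. *Otof*, *Slc17a8* and *Cabp2* are made in the cochlea mostly by hair cells, whereas *Bsn*, *Pclo*, *Rims2* and *Rimbp2* are also made by neurons, and the shorter CtBP2 protein, a transcriptional corepressor, is made by most cells.

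Values are FPKM, the fragments assigned to a gene, scaled for transcript length and for the fragments of the library, with 2 decimals. FPKM summed to between 474616 and 537926 in the *Atf6+/+* and between 462005 and 502419 in the *Atf6-/-* libraries. Read counts were not used here. The steps between low values of 403 short genes corresponded to about 24900000 to 26700000 fragments per library, under an assumed fragment of 200 bases, so depth differed little between libraries. At that depth, and on the shortest coding transcript of each gene in GENCODE M21 (1863, 781 and 6881 bases), the lowest value of *Slc17a8* would rest on about 67 fragments and that of *Cabp2* on about 88, against 1231 for *Otof*. These are low estimates, since a longer transcript, such as the 4456 bases of Slc17a8-201, gives more fragments for the same FPKM. The targeted gene, *Atf6*, had a mean of 9.52 ± 1.11 FPKM in *Atf6+/+* (SD, n = 5) against 4.26 ± 0.285 FPKM in *Atf6-/-* cochleae (SD, n = 6). The groups did not overlap, and the exact two-sided permutation p of 0.00216 is the smallest that splits of 11 libraries into 5 and 6 can give. All 14 hair cell markers were detected, with a summed level of 67.1 to 149 FPKM in *Atf6+/+* and 79.5 to 123 FPKM in *Atf6-/-* libraries. *Atf6+/+* libraries 3 and 4 stood apart. Their *P2rx3*, an ATP receptor subunit of sensory neurons, was 4.81 and 4.61 FPKM against at most 0.69 FPKM in the other 9, and their *Prph*, the intermediate filament peripherin, was 13.29 and 41.50 FPKM against at most 2.40 FPKM. Differences of the 8 genes, of the marker scores and of several other synapse and marker genes are therefore also given without these 2 libraries, a choice made after the data were seen.

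Promoter sequence was read for 6 of the 8 genes from RefSeq starts on GRCm38.p6. *Otof* and *Rims2* had no entry. The 3 windows below are shown because *Slc17a8* and *Cabp2* moved together across libraries while *Pclo* did not move with them. Each is the stretch from 250 to 11 bases before a start, written 5′ to 3′ on the strand of the gene, and capitals mark the letters CCACG or their reverse complement, the 3′ part of the ER stress response element bound by ATF6 with NF-Y.
*Slc17a8*, chr10:89621260-89621499, minus strand: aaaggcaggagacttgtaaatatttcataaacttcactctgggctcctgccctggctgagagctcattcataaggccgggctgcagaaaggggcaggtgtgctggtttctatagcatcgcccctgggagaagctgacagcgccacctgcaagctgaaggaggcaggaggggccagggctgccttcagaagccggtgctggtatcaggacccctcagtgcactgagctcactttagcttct
*Cabp2*, chr19:4082238-4082477, plus strand: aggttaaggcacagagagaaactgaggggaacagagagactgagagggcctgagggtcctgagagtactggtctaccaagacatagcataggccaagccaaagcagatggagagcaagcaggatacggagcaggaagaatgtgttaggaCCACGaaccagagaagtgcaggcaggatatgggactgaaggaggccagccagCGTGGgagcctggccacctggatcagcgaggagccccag
*Pclo*, chr5:14514668-14514907, plus strand: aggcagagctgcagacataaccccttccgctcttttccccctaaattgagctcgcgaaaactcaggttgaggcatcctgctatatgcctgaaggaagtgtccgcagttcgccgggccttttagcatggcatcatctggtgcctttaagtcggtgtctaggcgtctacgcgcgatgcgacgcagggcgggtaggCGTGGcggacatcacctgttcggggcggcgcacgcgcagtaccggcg
None of the windows at 9 starts of the 6 genes held the whole element, CCAAT and CCACG with 9 bases of any kind between them, on either strand, and 0.113% of all 32851 windows did. CCACG alone stood before 3 of the 9 starts (*Bsn*, *Pclo* and, in 2 copies, *Cabp2*), where 27.5% of all windows held it. TGACGTG, a further ATF6 site that can overlap CCACG by its last letters, was found at none of the 9 (1.56% of all windows), nor was TGATGNAA, an ATF4 site (3.37%). CAGCTG, an E-box of the kind bound by ATOH1, was found at 1 start, that of *Rimbp2* (12.4%). These counts describe letters in a short window only.

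*Otof*, *Slc17a8* and *Cabp2*, the 3 genes of the group made mostly by hair cells, varied several-fold among cochleae of 1 genotype and did not differ between genotypes beyond that spread. The fitted levels were 1.17 to 1.24 times as high in *Atf6-/-* as in *Atf6+/+* cochleae, and the groups overlapped for each gene. In bulk tissue, fewer hair cells and less RNA per hair cell cannot be told apart.

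*Otof* measured 31.52, 21.37, 7.40, 8.30 and 13.88 FPKM in *Atf6+/+* libraries 1 to 5. In *Atf6-/-* libraries 1 to 6 it measured 18.11, 14.06, 24.25, 24.84, 9.95 and 19.64 FPKM. The highest and the 2 lowest values were all *Atf6+/+*, and every *Atf6-/-* value lay between them. The means were 16.5 ± 10.1 FPKM (SD, n = 5) and 18.5 ± 5.79 FPKM (SD, n = 6). The log2 fold change of 0.31 ± 0.363 (SE) did not pass the test (adjusted p = 0.786 in limma, exact two-sided permutation p = 0.472). The 95% confidence interval of the fold change ran from 0.718 to 2.14.

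*Slc17a8* measured 5.67, 3.96, 1.61, 1.68 and 2.75 FPKM in the *Atf6+/+* libraries. It measured 3.97, 2.60, 3.68, 4.06, 2.66 and 3.54 FPKM in the *Atf6-/-* libraries. As for *Otof*, *Atf6+/+* library 1 was the highest of all and *Atf6+/+* libraries 3 and 4 the lowest. The means were 3.13 ± 1.71 (SD, n = 5) and 3.42 ± 0.639 FPKM (SD, n = 6), and the log2 fold change was 0.26 ± 0.29 (SE; adjusted p = 0.772 in limma, exact permutation p = 0.446). The fold change lay between 0.774 and 1.85 at 95% confidence.

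*Cabp2* measured 26.60, 14.39, 6.09, 6.58 and 10.30 FPKM in the *Atf6+/+* libraries. It measured 12.69, 10.19, 21.68, 19.15, 6.54 and 12.52 FPKM in the *Atf6-/-* libraries. The lowest values again included *Atf6+/+* libraries 3 and 4, joined here by *Atf6-/-* library 5. The means were 12.8 ± 8.41 (SD, n = 5) and 13.8 ± 5.64 FPKM (SD, n = 6). The log2 fold change was 0.22 ± 0.386 (SE; adjusted p = 0.870 in limma, exact permutation p = 0.639), with an interval of the fold change from 0.652 to 2.09.

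The sign of these 3 differences rested on *Atf6+/+* libraries 3 and 4. Without both, the log2 fold changes were -0.26 for *Otof*, -0.23 for *Slc17a8* and -0.30 for *Cabp2* (limma adjusted p = 0.912, 0.887 and 0.913). The bone marrow and blood score, the mean log2 value of 14 markers, was 5.56 ± 0.88 (SD, n = 5) in *Atf6+/+* and 4.25 ± 0.87 (SD, n = 6) in *Atf6-/-* libraries (exact permutation p = 0.0390, 0.156 adjusted over 8 scores). *Atf6+/+* libraries 3 and 4 had the 2 highest scores of all 11, 6.89 and 5.98, and without them the difference went from -1.3 to -0.72 (exact permutation p = 0.250). All 14 of its markers had negative log2 fold changes, their summed level was 3720 to 30500 FPKM in *Atf6+/+* and 1960 to 6430 FPKM in *Atf6-/-* libraries, and none was at 0. With this score as a covariate the log2 fold changes were -0.05, -0.14 and -0.09 for *Otof*, *Slc17a8* and *Cabp2*, none of them past the threshold (limma adjusted p = 0.998, 0.988 and 0.996).

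**Figure D1:**
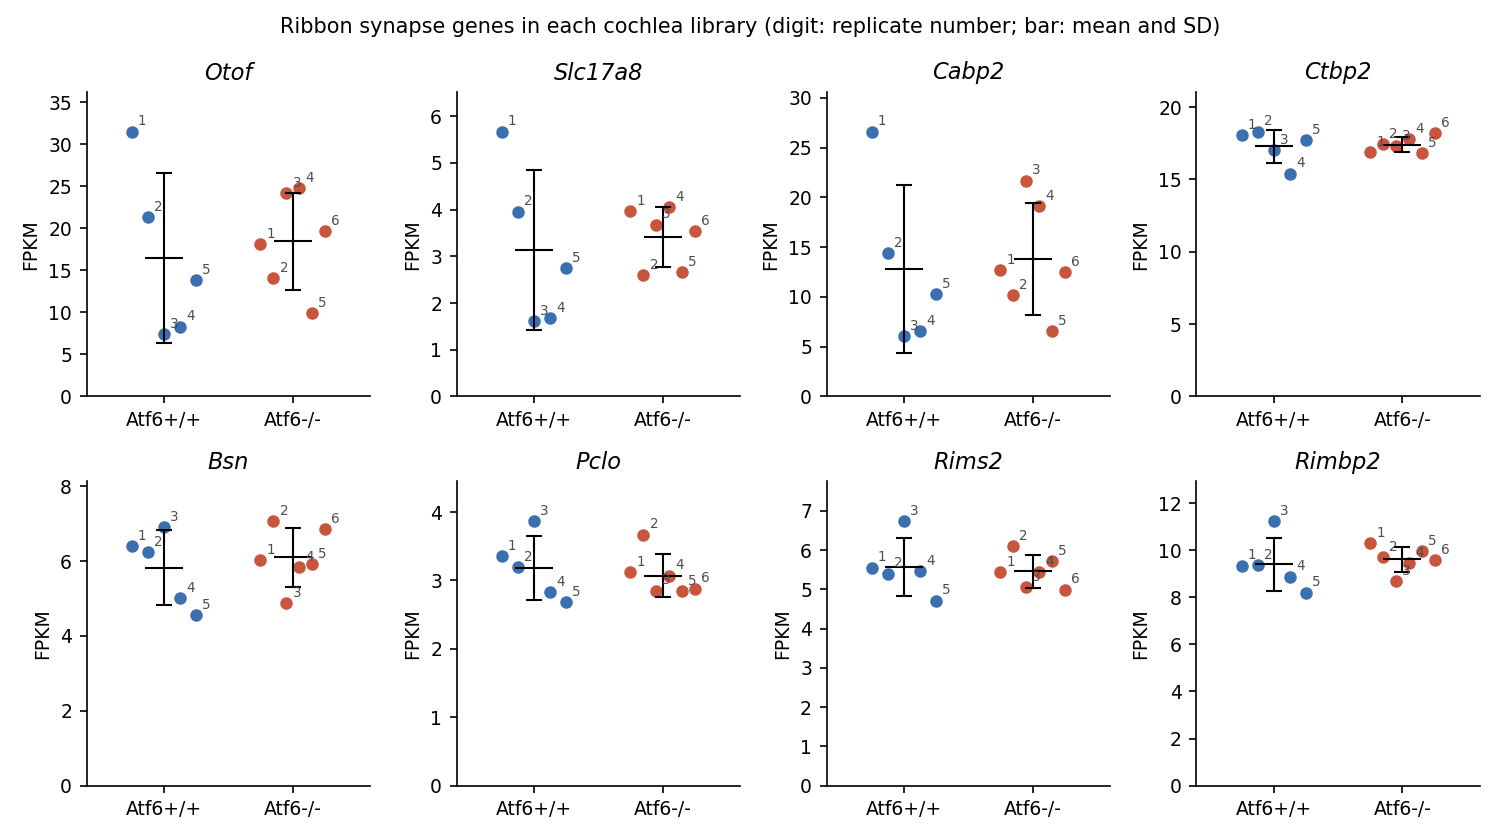
FPKM of the 8 ribbon synapse genes (vertical axes, from 0) in each *Atf6+/+* (blue, n = 5) and *Atf6-/-* library (red, n = 6), with digits for the replicate number and black bars for the mean and SD. *Otof*, *Slc17a8* and *Cabp2* spread widely within a genotype, whereas *Ctbp2* stayed between 15.41 and 18.30 FPKM.

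*Ctbp2*, the gene of the ribbon protein RIBEYE, hardly varied. It measured 18.04, 18.30, 17.02, 15.41 and 17.70 FPKM in the *Atf6+/+* and 16.91, 17.43, 17.28, 17.78, 16.84 and 18.21 FPKM in the *Atf6-/-* libraries. The range of the *Atf6-/-* values fell inside that of the controls. The means were 17.3 ± 1.16 (SD, n = 5) and 17.4 ± 0.523 FPKM (SD, n = 6), the log2 fold change was 0.01 ± 0.0507 (SE; adjusted p = 0.954 in limma), and the interval of the fold change, from 0.934 to 1.09, was the narrowest of the 8 genes. These values are for the whole gene. In GENCODE M21 on GRCm38, a transcript that encodes 988 residues starts at position 133015248 of chromosome 7, and the transcripts for 445 and 420 residues start at 133123367 and 133123166. The long form has the length of RIBEYE, and gene-level FPKM does not separate it from the short forms.

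*Bsn*, *Pclo*, *Rims2* and *Rimbp2*, the active zone genes, differed between genotypes by at most 0.07 on the log2 scale. *Bsn* measured 6.40, 6.23, 6.91, 5.01 and 4.55 FPKM in the *Atf6+/+* and 6.02, 7.07, 4.88, 5.84, 5.91 and 6.85 FPKM in the *Atf6-/-* libraries. Its log2 fold change was 0.07 ± 0.123 (SE; adjusted p = 0.864 in limma), with overlapping groups. *Pclo* measured 3.36, 3.20, 3.87, 2.83 and 2.68 FPKM in the *Atf6+/+* and 3.12, 3.67, 2.85, 3.07, 2.84 and 2.88 FPKM in the *Atf6-/-* libraries. In each group, 1 library stood highest, *Atf6+/+* 3 and *Atf6-/-* 2, and the log2 fold change of *Pclo* was -0.05 ± 0.107 (SE; adjusted p = 0.904 in limma).

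*Rims2* measured 5.55, 5.40, 6.74, 5.47 and 4.71 FPKM in the *Atf6+/+* and 5.43, 6.10, 5.06, 5.43, 5.72 and 4.99 FPKM in the *Atf6-/-* libraries. Its highest values were in the same 2 libraries as those of *Pclo*, and its log2 fold change was -0.02 ± 0.0895 (SE; adjusted p = 0.944 in limma). *Rimbp2* measured 9.34, 9.37, 11.24, 8.88 and 8.20 FPKM in the *Atf6+/+* and 10.29, 9.69, 8.69, 9.44, 9.97 and 9.59 FPKM in the *Atf6-/-* libraries. All *Atf6-/-* values of *Rimbp2* lay within the control range, and its log2 fold change was 0.04 ± 0.0767 (SE; adjusted p = 0.893 in limma). At 95% confidence, the fold changes of these 4 genes lay within 0.825 and 1.27.

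None of the 8 genes had an adjusted p under 0.05 in limma, where 0.068% of the 16169 genes tested did. None met the rule that the study applied to single genes, p ≤ 0.05 without adjustment and a log2 fold change of more than 0.05 in either direction, which 9.85% of the genes tested met, and none had an exact permutation p under 0.05. For none did the groups separate without overlap, as they did for 1.25% of the genes tested. By sign alone, 6 of the 8 had positive and 2 negative log2 fold changes, with a median of 0.055, beside -0.013 over all genes tested.

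**Figure D2:**
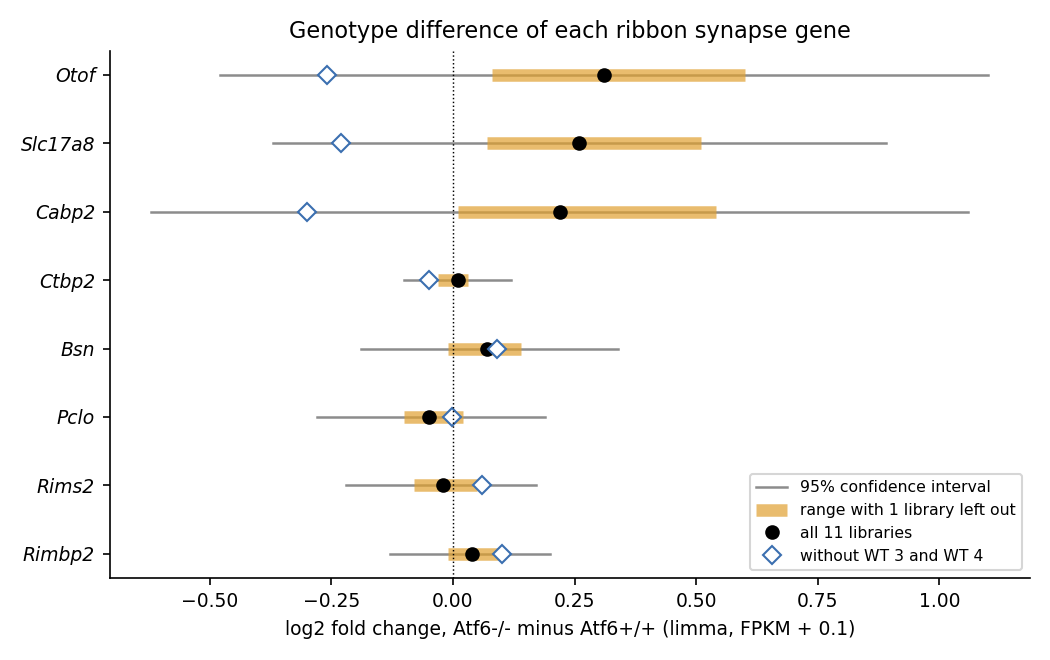
Log2 fold change of each gene, *Atf6-/-* minus *Atf6+/+*, from limma (black points) with its 95% confidence interval (gray lines), the range with 1 library left out (yellow bars) and the value without *Atf6+/+* libraries 3 and 4 (open diamonds). All 8 intervals include 0, and the diamonds of *Otof*, *Slc17a8* and *Cabp2* lie left of 0.

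The 8 genes fell into groups by how they varied among cochleae. Within a genotype, the SD of the log2 value was 0.696 for *Otof*, 0.546 for *Slc17a8* and 0.741 for *Cabp2*, and only 5.84%, 9.74% and 5.12% of the genes tested had a larger one. It was 0.126 to 0.218 for the 4 active zone genes, around the median of 0.154 over all genes tested, and 0.0733 for *Ctbp2*, below that of 92.5% of the genes tested. Over the 11 libraries, Pearson's r between *Otof*, *Slc17a8* and *Cabp2* ranged from 0.90 to 0.98 over the 3 pairs, and from 0.64 to 0.85 over the 6 pairs of *Bsn*, *Pclo*, *Rims2* and *Rimbp2*. Between these groups it ranged from -0.48 to 0.08 over 12 pairs. *Ctbp2* had an r of 0.61 to 0.70 with the first 3 genes and of -0.25 to 0.35 with the other 4. With each genotype centred on its own mean, the ranges were 0.90 to 0.98, 0.67 to 0.85 and -0.48 to 0.04. These are descriptions, in which the 2 values of each point come from the same library.

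**Figure D3:**
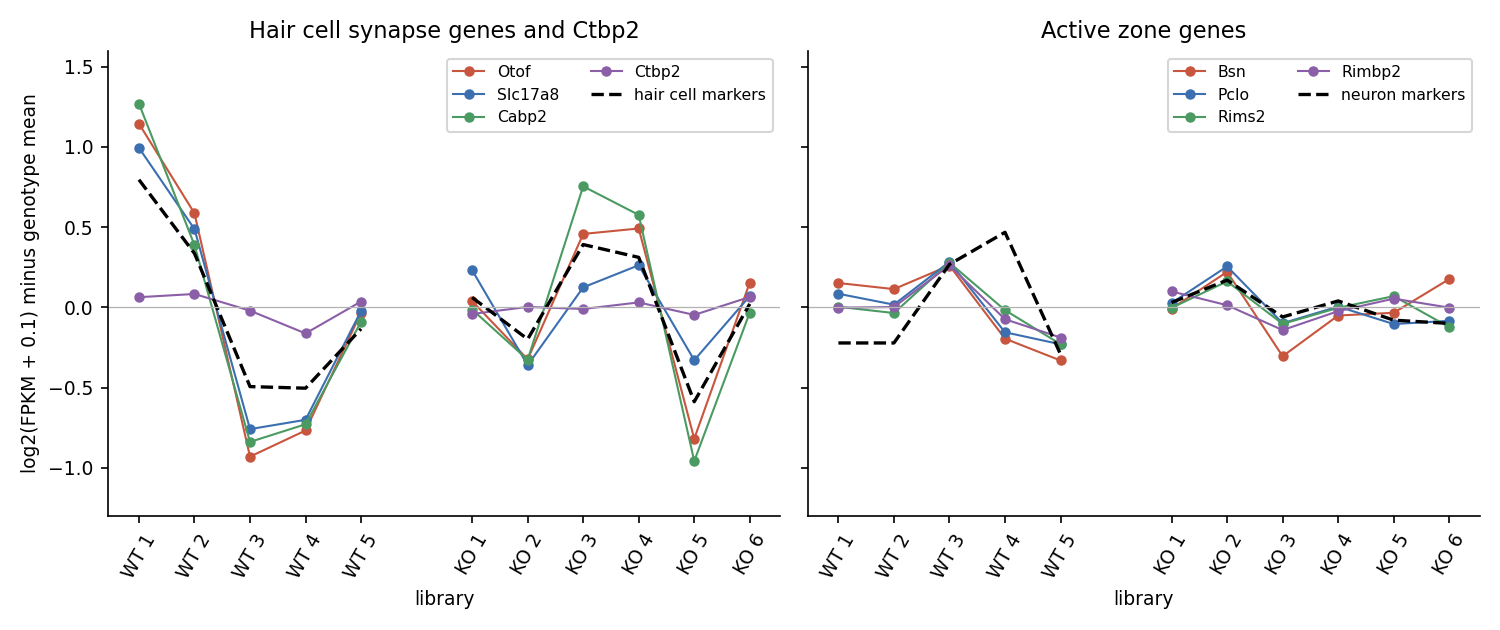
Log2(FPKM + 0.1) of each gene minus the mean of its genotype (vertical axis) for the 11 libraries (horizontal axis), with the score of hair cell (left) or neuron markers (right) as a dashed line. The lines of *Otof*, *Slc17a8* and *Cabp2* rise and fall with the hair cell markers, *Ctbp2* stays near 0, and the 4 active zone genes stay within a narrow band of their own.

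*Otof*, *Slc17a8* and *Cabp2* followed the other hair cell genes library by library. In unsorted tissue, such a relation was likely for genes made mostly by hair cells, and it is no result about genotype. The hair cell score, the mean log2 value of 14 markers that include *Myo7a*, *Pou4f3* and *Tmc1*, ranged from 1.55 in *Atf6+/+* library 4 to 2.85 in *Atf6+/+* library 1, and no difference between genotypes was detected (2.05 ± 0.56, SD, n = 5, and 2.18 ± 0.36, SD, n = 6; exact permutation p = 0.673). *Otof* correlated with it at r = 0.98 and rho = 0.97 (permutation p adjusted over 24 relations, 0.00012 and 0.00024). For *Cabp2* the values were r = 0.99 and rho = 0.96 (adjusted permutation p = 0.00012 and 0.00024), and for *Slc17a8* r = 0.93 and rho = 0.90 (adjusted permutation p = 0.0004 and 0.00312). The raw permutation p-values for r were 1e-05, 1e-05 and 5e-05 in the same order, and 1e-05 is the smallest that 100000 permutations can give. Centred on genotype, r was 0.99, 0.99 and 0.93, and without the 2 libraries farthest from the median score, *Atf6+/+* 1 and 4, it was 0.98, 0.99 and 0.87. Without these libraries rho was 0.97 for *Otof*, 0.98 for *Cabp2* and 0.83 for *Slc17a8*, and that of *Slc17a8* was no longer under 0.05 after adjustment (adjusted permutation p = 0.0661). Of the other 21 relations, which paired the 8 genes with hair cell, neuron and bone marrow scores, none had an adjusted permutation p under 0.05. The nearest to it was *Slc17a8* with the neuron score, at r = -0.76 (adjusted permutation p = 0.0523) and at r = -0.08 without *Atf6+/+* libraries 3 and 4. *Prph*, by which those libraries stood apart, is 1 of the 10 markers in the neuron score. *Ctbp2* had r = 0.65 with the hair cell score (adjusted permutation p = 0.0742). *Pclo* correlated with the neuron score at r = 0.86 once *Atf6+/+* libraries 3 and 4 were left out (adjusted permutation p = 0.0212) but at r = 0.35 with all libraries.

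**Figure D4:**
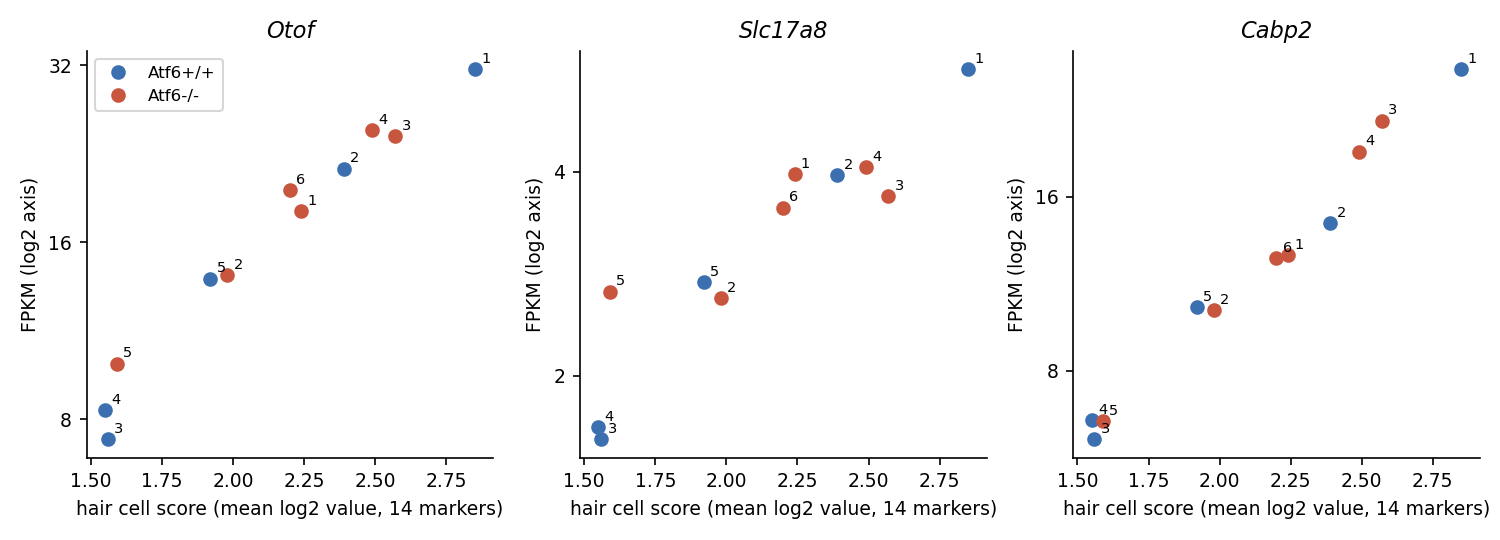
FPKM of *Otof*, *Slc17a8* and *Cabp2* (vertical axes, log2 scale) against the hair cell score (horizontal axis) in *Atf6+/+* (blue) and *Atf6-/-* libraries (red), with digits for the replicate number. Each gene is higher in libraries with a higher score, with r = 0.98, 0.93 and 0.99 over the 11 libraries, and the slopes were not compared between genotypes.

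Set against the hair cell score of the same library, no difference between genotypes was detected for the 3 genes. The log2 value of *Otof* minus the score was 1.78 ± 0.34 (SD, n = 5) in *Atf6+/+* and 1.97 ± 0.16 (SD, n = 6) in *Atf6-/-* libraries, a difference of 0.19 (exact permutation p = 0.264, adjusted over 3 genes 0.445). For *Slc17a8* the difference was 0.14 (exact permutation p = 0.297, adjusted 0.445) and for *Cabp2* 0.10 (exact permutation p = 0.647, adjusted 0.647). Without *Atf6+/+* libraries 3 and 4 the differences were -0.05, -0.02 and -0.09. The subtraction may not take out all of the hair cell content, which was not tested. In *Atf6+/+* library 1, which had the highest score, *Otof* minus the score was 2.14. It was 1.35 and 1.52 in *Atf6+/+* libraries 3 and 4, which had the lowest scores. The FPKM ratio of *Otof* to *Cabp2* was nearly constant, between 1.18 and 1.49 in *Atf6+/+* and between 1.12 and 1.57 in *Atf6-/-* libraries (exact permutation p = 0.374, adjusted over 3 ratios 0.829). The ratio of *Otof* to *Slc17a8* ran from 3.74 in *Atf6-/-* library 5 to 6.59 in *Atf6-/-* library 3, and that of *Cabp2* to *Slc17a8* from 2.46 to 5.89 in the same libraries. For neither was a difference between genotypes detected (exact permutation p = 0.814 and 0.829, adjusted 0.829 for each). The ratios were chosen after the data were seen.

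*Otol1* of the vestibule and *Slc26a5* of outer hair cells were set beside the 3 genes after their values had been seen. Their correlations are therefore given as descriptions, and permutation tests run on them are not used here. *Otol1*, which encodes otolin-1 of the otoconia, measured 9.0, 5.30, 2.41, 2.19 and 3.25 FPKM in the *Atf6+/+* and 3.11, 3.44, 5.45, 5.62, 0.08 and 3.41 FPKM in the *Atf6-/-* libraries. Over the 11 libraries its r was 0.64 with *Otof*, 0.71 with *Cabp2* and 0.46 with *Slc17a8* (rho = 0.92, 0.88 and 0.74). Without *Atf6+/+* library 1 and *Atf6-/-* library 5, r was 0.90, 0.93 and 0.82 in the same order. The other vestibular markers did not all share this pattern, and *Otop1*, the most abundant, measured 7.81 FPKM in *Atf6+/+* library 1 and 9.54 FPKM in *Atf6+/+* library 4. Summed over all 4 vestibular markers, of which none was at 0 in every library, the level was 10.5 to 18.1 FPKM in *Atf6+/+* and 8.02 to 17.0 FPKM in *Atf6-/-* libraries, and the part of vestibular tissue in the values of *Otof* and *Cabp2* was not tested. *Slc26a5*, which encodes prestin of outer hair cells, measured 0.24 to 1.17 FPKM in *Atf6+/+* and 0.51 to 4.11 FPKM in *Atf6-/-* libraries. Its r was 0.31 with *Otof*, 0.18 with *Cabp2* and 0.52 with *Slc17a8*, and 0.51, 0.38 and 0.61 without *Atf6+/+* library 4 and *Atf6-/-* library 5. *Atf6-/-* library 5 had the highest *Slc26a5* (4.11 FPKM) and the lowest *Otol1*, together with the lowest *Otof* and *Cabp2* of its genotype, whereas its *Slc17a8* of 2.66 FPKM was not the lowest.

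By mean level per transcript length over all 11 libraries, the order of the 8 genes was *Otof* (17.6 FPKM), *Ctbp2* (17.4), *Cabp2* (13.3), *Rimbp2* (9.52), *Bsn* (5.97), *Rims2* (5.51), *Slc17a8* (3.29) and *Pclo* (3.12). Of the 7 neighbouring pairs, *Rimbp2* was above *Bsn* in 11 of 11 libraries and *Rims2* above *Slc17a8* in 10 of 11. In each of the other 5 pairs, among them *Otof* with *Ctbp2* and *Slc17a8* with *Pclo*, the gene of higher mean was the higher one in 6 to 8 libraries, so their order was not the same in every cochlea. The pairs were formed from these same values, so the counts are a description, and a test run on the pairs is not used here.

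Among the 13611 genes whose mean reached 1 FPKM, those most like each member by Pearson's r over the 11 libraries were looked up as a description. For *Otof* these were *Lrrc3c*, *Rbm24*, *Cabp2*, *Kncn* and *Ush1c* (r from 0.980 to 0.973). For *Cabp2* they were *Kcna10*, *Ush1c*, *Espn*, *Cep41* and *Otof* (0.985 to 0.976). *Ush1c* encodes harmonin and *Espn* the actin-bundling protein espin, both of stereocilia, and *Rbm24* an RNA-binding splicing factor. For *Slc17a8* they were *Chrna9*, the α9 subunit of the nicotinic receptor at the efferent synapse, *Id4*, *Gm34653*, *Epha1* and *Liph* (0.975 to 0.972). The active zone genes had other neighbours. They were *Tdrkh* and *Kcnk9* for *Bsn* (0.964 and 0.954), *Sez6l* and *Ttc3* for *Pclo* (0.961 and 0.949), *Krt222* and *Myt1l* for *Rims2* (0.951 and 0.949), and *Gm1043* and *Usp13* for *Rimbp2* (0.940 and 0.939). For *Ctbp2* they were *Ahctf1* and *Alpk1* (0.912 and 0.900).

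The other genes of the synapse gave a background for the 8. Of 65 such genes in the files, 59 passed the filter, and none had an adjusted p under 0.05 in limma. By the study's rule, 2 were higher and 4 lower in *Atf6-/-* cochleae, where 4.48% and 5.37% of all genes tested were. Among calcium channel subunits and CaBP relatives, 0 of 4 tested met the rule. Their most abundant genes were *Cabp1*, a calcium sensor related to CaBP2, at 133 and 121 FPKM in *Atf6+/+* and *Atf6-/-* cochleae, and *Cacnb2*, the channel's β2 subunit, at 11.1 and 11.3 FPKM. *Cacna1d*, the CaV1.3 channel through which inner hair cells admit calcium, measured 5.73 to 8.01 FPKM in *Atf6+/+* and 6.32 to 9.81 FPKM in *Atf6-/-* libraries (log2 fold change 0.20, limma adjusted p = 0.567); it was named after its values were seen. *Cabp4* and *Cabp5*, which serve photoreceptor and bipolar cell synapses of the retina, were below the filter.

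Of 12 other active zone and ribbon proteins, 0 met the rule, with a median log2 fold change of -0.02. The highest were *Rab3a*, a vesicle GTPase that binds RIM, at 474 and 463 FPKM, and *Ctbp1*, the paralog of *Ctbp2*, at 101 and 99.8 FPKM. Of 19 vesicle cycle genes tested, 2 met the rule and 16 had negative log2 fold changes, as had 8845 of all 16169 genes tested. The median of the list was -0.06, and it was 0.007 without *Atf6+/+* libraries 3 and 4 and -0.007 after each library was rescaled to the same sum (TPM). *Syt1*, a calcium sensor of neuronal release, had a log2 fold change of -0.40 and *Syt4* of -0.18 (limma p = 0.0262 and 0.0485, adjusted p = 0.467 and 0.505, exact permutation p = 0.0563 for each). The highest genes of this list, the SNARE gene *Snap25* and the complexin gene *Cplx1*, had log2 fold changes of -0.14 and -0.09. Of the ferlins related to *Otof* and the complex that inserts tail-anchored proteins, 4 were tested and 0 met the rule. *Get3* and *Get1* of the insertion complex measured 91.9 and 17.8 FPKM in *Atf6+/+* and 94.2 and 16.8 FPKM in *Atf6-/-* cochleae. *Get1* had a log2 fold change of -0.09 with an exact permutation p of 0.0195, while its limma p was 0.0626 (adjusted p = 0.513). The ferlin genes *Fer1l5* and *Fer1l6* were below the filter.

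Of the vesicular glutamate transporters of neurons, 1 of 2 was lower by the rule. *Slc17a7* (VGLUT1) averaged 238 and 248 FPKM with a log2 fold change of 0.06. *Slc17a6* (VGLUT2) measured 43.30, 38.95, 48.98, 38.16 and 33.55 FPKM in the *Atf6+/+* and 31.79, 39.01, 34.99, 31.19, 28.86 and 30.01 FPKM in the *Atf6-/-* libraries, with overlapping groups and a log2 fold change of -0.31 (limma p = 0.00836, adjusted 0.400; exact permutation p = 0.0238). Without *Atf6+/+* libraries 3 and 4 it was -0.24 (limma adjusted p = 0.781).

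Of 14 afferent postsynaptic and trophic genes, 1 was higher and 1 lower by the rule. *P2rx2*, an ATP receptor subunit, averaged 46.8 and 62.4 FPKM. Its log2 fold change was 0.44 (limma p = 0.00912, adjusted p = 0.400, exact permutation p = 0.0152), and its lowest values were 32.33 and 38.23 FPKM in *Atf6+/+* libraries 3 and 4. *P2rx3* had a log2 fold change of -1.21 (limma p = 0.0473, adjusted p = 0.505, exact permutation p = 0.0541), and its values above 0.69 FPKM were in the same 2 libraries. *Ntrk2*, the BDNF receptor and the other most abundant gene of this list, averaged 38.4 and 40.3 FPKM. Of 4 efferent synapse genes, *Kcnn2*, the SK2 potassium channel of hair cells, measured 9.95 to 12.24 FPKM in *Atf6+/+* and 11.52 to 14.48 FPKM in *Atf6-/-* libraries (log2 fold change 0.23, limma p = 0.0108, adjusted p = 0.407, exact permutation p = 0.0152). *Rapsn*, which clusters acetylcholine receptors, measured 7.32 and 6.46 FPKM on average (log2 fold change -0.17, limma adjusted p = 0.576). Without *Atf6+/+* libraries 3 and 4, the log2 fold changes of *P2rx2*, *P2rx3* and *Kcnn2* were 0.19, -0.09 and 0.13, none of them past the rule, and the other synapse genes that met it were *Slc17a7*, which was higher (0.15), and *Slc17a6*, which was lower. Leaving out *Atf6+/+* library 5 gave 9 lower. Leaving out *Atf6+/+* library 3, *Atf6-/-* library 1 or *Atf6-/-* library 5 gave 1 lower, and leaving out *Atf6-/-* library 4 or 6 gave 2. With the bone marrow score as a covariate, none was higher and none lower. The share of all genes tested that met the rule was then 5.28%, against 9.85% without the covariate.

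**Figure D5:**
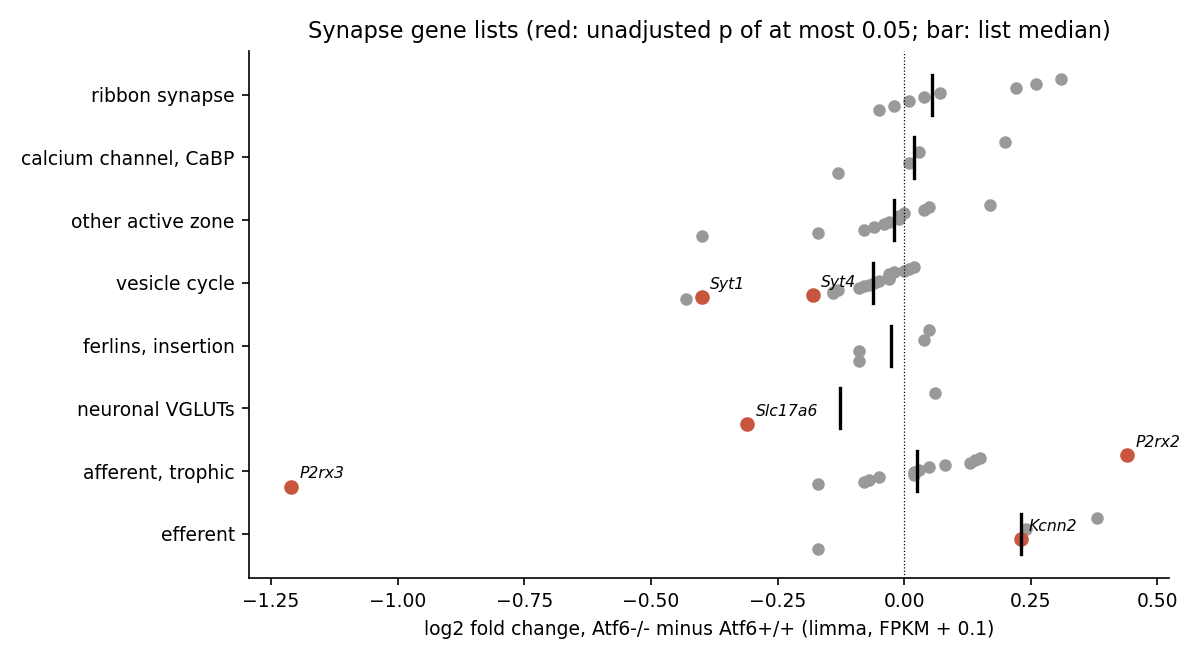
Log2 fold change, *Atf6-/-* minus *Atf6+/+* (horizontal axis), of each tested gene (points) in 8 lists of synapse genes, with the list median as a bar and the genes that met the study's rule in red. None of the 8 ribbon synapse genes is red, and 6 of the other 59 genes are.

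Markers of other tissue were measured over their whole lists. For outer hair cells, whose markers were all detected, the median log2 fold change was 0.585 and the score had an exact permutation p of 0.0649 (adjusted over 8 scores 0.173). The rule was met by 2 of the 6, *Ocm*, the calcium buffer oncomodulin (34.2 and 74.0 FPKM on average, limma adjusted p = 0.391, exact permutation p = 0.0238), and *Slc26a5* (0.70 and 1.93 FPKM, limma adjusted p = 0.475, exact permutation p = 0.0931). *Atf6+/+* libraries 3 and 4 had the 2 lowest outer hair cell scores of all 11, 1.04 and 1.0. Without them the score difference went from 0.58 to 0.27 (exact permutation p = 0.345), and neither *Ocm* nor *Slc26a5* met the rule (log2 fold changes 0.61 and 0.75). Of the 14 hair cell markers, 0 met the rule, and the most abundant, *Myo6* and *Lhfpl5*, had log2 fold changes of 0.26 and 0.04. Neuron markers, led by *Nefh* and *Nefm* and with *Prph* among them, had a median of -0.07. *Stmn2* alone was lower by the rule (exact permutation p = 0.277 for the score). Central nervous system markers, led by *Gfap* and *Mobp*, had a median of 0.47, with *Mobp* alone higher (0.134). Of the 14 bone marrow and blood markers, 9 met the rule, all of them lower, among them *Hba-a1*, *Hbb-bs*, *S100a9*, *S100a8*, *Ltf*, *Alas2* and *Cd79a*. Rod photoreceptor markers had a summed level of at most 6.46 FPKM and a score difference of -0.54 (exact permutation p = 0.0260, adjusted 0.156). No vestibular or skeletal muscle marker met it (the most abundant were *Otop1* and *Otol1*, and *Acta1* and *Tnnt3*), and the exact permutation p of their scores was 0.628 and 0.842. Without *Atf6+/+* libraries 3 and 4, the rule was met by 3 bone marrow markers (*Hba-a1*, *Hbb-bs* and *Alas2*, all lower) and by neither *Stmn2* nor *Mobp*. The neuron score difference went from -0.19 to 0.05, the central nervous system one from 0.51 to 0.31 and the rod one from -0.54 to -0.80 (exact permutation p = 0.452, 0.417 and 0.0119, where 0.0119 is the smallest that 3 against 6 libraries can give, 0.0952 adjusted over 8 scores). The hair cell, vestibular and skeletal muscle score differences were then -0.21, -0.57 and -0.51 (exact permutation p = 0.464, 0.381 and 0.762).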

How the data were processed

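The deposited tables give FPKM for each library. According to the study's methods and the submitters' processing notes, the authors made stranded mRNA libraries, used HISAT2 2.0.4 to align them to GRCm39, estimated FPKM with RSEM (1.2.12 in the notes) and tested with DESeq2 1.4.5. Read counts were not used here, and intervals do not include counting error.

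The groups followed the genotype labels. Expression was compared with limma 3.58.1 (R 4.3.3, mean-variance trend, two-sided) on log2(FPKM + 0.1), over the 16169 genes whose mean reached 0.1 FPKM, with genotype as the only term and Benjamini-Hochberg adjustment over all of them. A fold change on this scale understates the change of low genes. The script was tested on simulated data. Single values were compared by exact permutation over every split into 5 and 6 libraries, and correlations by 100000 permutations. The labels do not tie the libraries to separate animals beyond their names, so p-values measure the spread between these libraries.

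The members and gene lists were chosen with earlier results of these data known, so no list serves as independent support. The genes named are every member, *Atf6*, the 2 most abundant genes and each gene with an unadjusted p of at most 0.05 in a list, and the genes of highest r. Some of the marker genes that this rule selects are not reported here. Of the symbols listed, 4 (*Fer1l4*, *Wrb*, *Asna1* and *Camlg*) were not matched, where *Wrb* and *Asna1* are older symbols of *Get1* and *Get3*. Transcript starts and promoters are from GENCODE M21 and RefSeq tables on GRCm38, not the authors' build. Alternatives were pseudocounts of 1 and 0.01, other filters, TPM and median-of-ratios scaling, a replicate block, the bone marrow score as a covariate and libraries left out. Other steps ran in Python (3.11.15) using scipy (1.17.1), numpy (2.4.6), matplotlib (3.10.9) and pandas (2.3.3).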

Additional observations from a re-analysis of the deposited data

Results flagged for a closer look

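Of 40 groups of 5 or 6 values screened for a single distant library, 2 were marked by Dixon's criterion, about the number that chance gives at 1 in 20. *Pclo* measured 3.67 FPKM in *Atf6-/-* library 2, set apart from the other 5 libraries of that genotype, which lay between 2.84 and 3.12 FPKM. The same library also had the highest *Bsn* and *Rims2* of its genotype. The skeletal muscle score was 1.96 in *Atf6-/-* library 3, where *Acta1* reached 9.59 FPKM against at most 2.03 FPKM in the other 10 libraries. *Otof* and *Cabp2* of that library, at 24.25 and 21.68 FPKM, were among the 2 highest of the genotype. The part of muscle in these values was not tested.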

How the results depend on the processing

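None of the 8 genes had an adjusted p under 0.05 or met the study's rule under any alternative run. Signs changed for each of them under at least 1 alternative. With the bone marrow score as a covariate, the log2 fold changes were -0.05 for *Otof*, -0.14 for *Slc17a8*, -0.09 for *Cabp2*, 0.03 for *Pclo* and 0.06 for *Rims2*. Without *Atf6+/+* libraries 3 and 4 they were -0.26, -0.23 and -0.30 for *Otof*, *Slc17a8* and *Cabp2*, -0.05 for *Ctbp2* and 0.06 for *Rims2*, and -0.05, -0.02 and -0.09 for the first 3 relative to the hair cell score. Rescaled to TPM, *Pclo* was at 0.01 and *Rims2* at 0.03. The cause was not tested. With 1 library left out, the log2 fold change ranged from 0.08 to 0.60 for *Otof*, 0.07 to 0.51 for *Slc17a8*, 0.01 to 0.54 for *Cabp2*, -0.03 to 0.03 for *Ctbp2*, -0.01 to 0.14 for *Bsn*, -0.10 to 0.02 for *Pclo*, -0.08 to 0.05 for *Rims2* and -0.01 to 0.10 for *Rimbp2*. Relative to the hair cell score it ranged from 0.08 to 0.28 for *Otof*, 0.07 to 0.19 for *Slc17a8* and 0.01 to 0.22 for *Cabp2*.

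Replicate numbers did not pair the libraries (correlation of same-numbered deviations -0.21 to 0.12). With the replicate block, *Ctbp2* was at -0.001, and 2 of the other synapse genes met the rule in each direction. By the rule, the other synapse genes numbered 2 higher and 4 lower with all libraries, 0 and 0 with the bone marrow score, 1 and 1 without *Atf6+/+* libraries 3 and 4, and 1 lower after rescaling to TPM. With 1 library left out the counts were 2 to 3 higher and 1 to 9 lower. Over all genes tested, the rule was met by 1592 with all libraries, 1078 with the block, 853 with the score and 1010 without the 2 libraries.

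Among correlations, leaving out the 2 libraries farthest from the median score changed r to 0.01 and 0.03 for *Otof* and *Cabp2* with the neuron score, to -0.27 and -0.30 for *Bsn* and *Pclo* with the hair cell score, and to -0.15, -0.07, -0.14 and -0.28 for *Bsn*, *Pclo*, *Rims2* and *Rimbp2* with the bone marrow score. Centred on genotype, *Pclo* with the hair cell score was at 0.02. None of these passed the threshold. The spread of *Otof*, *Slc17a8* and *Cabp2* within a genotype limits what 11 libraries can show.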
